A study of Mus musculus with 12 samples.

Results

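The potassium channel genes of the mouse were examined in the striatum and the prefrontal cortex of mice with free access to ethanol. The members were all genes whose single symbol in the array annotation begins with Kcn, with Kcne2 left out by the rule. This gave 83 genes of the 18193 genes with a single symbol, and each gene was read from its brightest probe set, judged by the average of the 12 arrays. The 83 genes carried 166 probe sets, and 46 of them had more than 1.

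The animals were outbred male Swiss mice, 6 weeks old at the start and 22 weeks old at the end, that chose between 5% ethanol, 10% ethanol and water. The labels give 16 weeks in total: 10 of acquisition, 2 of withdrawal, 2 of renewed access and 2 with quinine at 0.005 g/L in the ethanol bottles, and they name 1 further week of free choice. The 4 groups of 3 arrays were the striatum of inflexible drinkers, the striatum of light drinkers, the prefrontal cortex of inflexible drinkers and the prefrontal cortex of light drinkers. Inflexible drinkers kept their preference for ethanol when quinine made it bitter, with blood ethanol of 113 ± 11.3 mg/dL, and light drinkers preferred water at every stage, with 48 ± 13.3 mg/dL; the kind of error is not stated. Every group had access to ethanol, so no comparison here is with mice that never drank it. The labels name a single RNA pool concentration for each group, so the 3 arrays of a group may be hybridisations of the same pool, and each p-value covers only the spread between arrays.

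Potassium channels let potassium leave or enter the cell and so set the resting potential, the shape of the action potential and the rate of firing. The voltage-gated pore subunits open on depolarisation, the inward rectifiers hold the membrane near rest and include the channels opened by G protein-coupled receptors, the 2-pore subunits carry leak currents, and a further family opens with intracellular calcium or sodium. Auxiliary subunits carry no current of their own and change the gating or the traffic of the pore subunits. In the striatum the medium spiny projection neurons owe their quiet resting state and their slow ramp to firing to inward rectifier and A-type potassium currents. The large-conductance calcium-activated channel and the G protein-gated inward rectifiers are known from other work as direct targets of ethanol.

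The arrays carried a technical difference that crosses the groups. The mean of 18 hybridisation control probe sets lay between 8.36 and 9.30 (log2) on 5 arrays and between 6.47 and 7.06 on the other 7. Each group held arrays of both kinds: 2 of 3 striatal arrays of inflexible drinkers had high controls, and 1 of 3 in each of the other groups. The labels do not name this split and its origin is unknown. Of the 83 members, 24 differed between high-control and low-control arrays at an adjusted p under 0.05, 15 of them lower on high-control arrays, against 33.5% of all genes. Kcnj9 differed most in the negative direction with a log2 difference of -0.73 ± 0.08 (SE, high minus low), and Kcnq5 most in the positive direction with 0.76 ± 0.11. Values of many, though not all, named genes are therefore given also with the split as a block, or on the low-control arrays alone, where that changes a call.

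The tissue labels were set against marker genes. All 15 measured medium spiny neuron markers were higher in striatum than in prefrontal cortex, with a median log2 difference of 1.81, while of 12 cortical excitatory neuron markers 4 were lower in striatum and 2 higher, with a median of -0.11 and a range from -1.97 (Cux2) to 1.12 (Foxp2). In prefrontal cortex 7 of the 15 medium spiny neuron markers and 6 of 12 oligodendrocyte markers were higher in inflexible drinkers. The summed linear level of the medium spiny neuron markers was 797 to 829 on the prefrontal arrays of inflexible drinkers and 438 to 473 on those of light drinkers. That of the oligodendrocyte markers was 1545 to 2129 in inflexible and 656 to 994 in light prefrontal cortex. The choroid plexus marker Ttr, which codes for a thyroxine carrier, was at 10.78 ± 0.43 in inflexible and 4.53 ± 0.17 in light prefrontal cortex (SD, n = 3 each). In striatum no gene of the medium spiny neuron, oligodendrocyte and choroid plexus lists passed between drinking classes, and with the split as a block 1 did, the medium spiny neuron marker Pdyn at 0.29 (adjusted p = 0.0498). In tissue RNA, fewer cells of a type and less RNA per cell cannot be told apart.

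Most member genes were dim. A group mean above log2 4 was reached in at least 1 group by 32 of the 83 genes, against 39.0% of all genes, and 51 genes stayed at or below it in every group. Just above the threshold lay Kcnt1, whose highest group mean was 4.09, Kcnj4 at 4.23, Kcna6 at 4.28 and Kcnh3 at 4.47. Just below it lay Kcna5 at 3.94, Kcnj13 at 3.91, Kcnip3 at 3.87 and Kcng1 at 3.81. The highest group means of the 51 dim genes ran from 2.87 to 3.94 with a median of 3.16. The summary of probes compresses low values, so differences of dim genes are understated, and probe sets respond differently to their targets, so an order of levels between genes is not an order of transcript amounts.

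**Figure D1:**
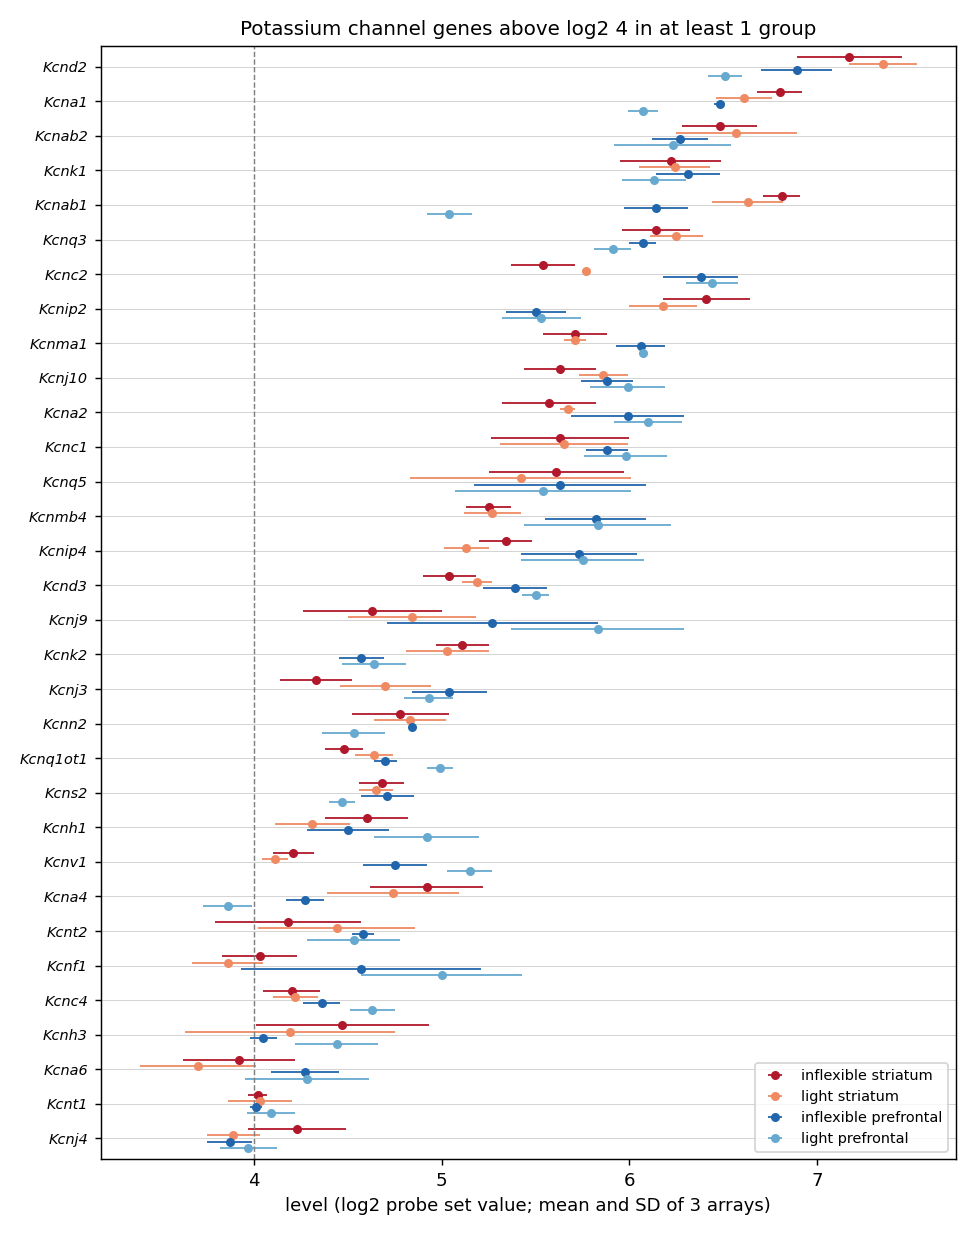
Levels of the 32 potassium channel genes above log2 4 in at least 1 group, as the mean and SD of 3 arrays (horizontal axis, log2 probe set value) in each of the 4 groups, one gene per row in the order of the mean over 12 arrays. The dashed line marks log2 4. For most genes the 4 groups lie close together, while Kcnab1 is low in light prefrontal cortex only, at 5.04, against 6.14 to 6.81 in the other groups.

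Among the 31 voltage-gated pore genes, 16 exceeded log2 4. The highest levels in this family belonged to Kcnd2, a Shal-type subunit of the A-type current, to Kcna1, a Shaker-type subunit found on axons, and to Kcnq3, a subunit of the M current that muscarinic receptors close. Kcnq3 was at 6.14 ± 0.18 in inflexible striatum, 6.25 ± 0.14 in light striatum, 6.07 ± 0.07 in inflexible and 5.91 ± 0.10 in light prefrontal cortex (SD, n = 3 each). Its arrays overlapped between classes and between regions, and it passed no test in the fit of all 12 arrays.

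Of the 15 inward rectifier genes, 4 exceeded log2 4. These were Kcnj10, the main inward rectifier of astrocytes, the G protein-gated subunits Kcnj9 and Kcnj3, and Kcnj4, a classical inward rectifier of forebrain neurons. Kcnj10 was at 5.63 ± 0.19 and 5.86 ± 0.13 in inflexible and light striatum, and at 5.88 ± 0.14 and 5.99 ± 0.20 in inflexible and light prefrontal cortex. Its groups overlapped, and its region difference of -0.18 ± 0.09 (adjusted p = 0.489) did not pass but did with the split as a block, at -0.14 (adjusted p = 0.0342). Kcnj6, the G protein-gated subunit that partners Kcnj3 and Kcnj9 in the brain, was dim at 3.18 and 3.43 in inflexible and light striatum and 3.09 and 3.36 in inflexible and light prefrontal cortex. The log2 differences of Kcnj6 between classes were -0.26 in prefrontal cortex and -0.25 in striatum, and neither passed the test.

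The 12 2-pore genes had 2 members above log2 4, the weak leak subunit Kcnk1 and the mechano- and lipid-sensitive Kcnk2. Kcnk1 differed little anywhere: 6.22 ± 0.27 in inflexible striatum, 6.24 ± 0.19 in light striatum, 6.31 ± 0.17 in inflexible and 6.13 ± 0.17 in light prefrontal cortex. Of the 8 calcium- or sodium-activated genes, 4 exceeded the threshold: Kcnma1, the pore of the large-conductance channel, Kcnn2, a small-conductance channel, and the sodium-activated Kcnt1 and Kcnt2. The small-conductance relatives Kcnn1 and Kcnn3 were dim, with highest group means of 3.31 and 3.00.

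Of the 14 auxiliary genes, 5 were above log2 4: the beta subunits Kcnab1 and Kcnab2, which bind Shaker-type pores, the calcium-binding Kcnip2 and Kcnip4, which bind Shal-type pores, and Kcnmb4, the neuronal beta subunit of the large-conductance channel. Kcnab2 had 6.48 ± 0.20 in inflexible striatum, 6.57 ± 0.32 in light striatum, 6.27 ± 0.15 in inflexible and 6.23 ± 0.31 in light prefrontal cortex, and its groups overlapped. The remaining 3 symbols stand for RNAs without a channel product. Kcnq1ot1, the imprinted long RNA from the opposite strand of Kcnq1, exceeded log2 4, and the antisense symbols Kcnmb4os1 and Kcnmb4os2 did not. The pore gene Kcnq1 itself was dim, at no more than 3.00 in any group.

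In prefrontal cortex a single member gene passed the test between drinking classes. Kcnab1 was higher in inflexible than in light drinkers, 2.13-fold on the linear scale, and 0 members were lower. Calls were made on 1.04% of all genes, 0.577% higher and 0.462% lower. The median log2 difference (inflexible minus light) over the 83 members was -0.01, against 0.00 over all genes, with a range from -0.55 to 1.09. Within 0.2 of no difference lay 66 members, against 15946 of all 18193 genes. At an unadjusted p under 0.05 stood 14 of the 83 members, against 1668 of all 18193 genes.

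Kcnab1 codes for a cytoplasmic beta subunit that speeds the inactivation of Shaker-type channels. Its level was 6.03, 6.33 and 6.04 on the 3 prefrontal arrays of inflexible drinkers and 4.97, 5.18 and 4.99 on those of light drinkers. The classes were separated by a wide gap, with every inflexible array above every light one. The log2 difference was 1.09 ± 0.11 (SE, adjusted p = 0.0023 by limma). It was 1.06 on low-control arrays alone and 1.15 on the high-control pair, and it stayed past the threshold whichever array was left out, with adjusted p between 0.00206 and 0.0159. Its second, dimmer probe set gave 0.34 in the same direction with an adjusted p of 0.627. In the same arrays the medium spiny neuron and oligodendrocyte marker sums, as given above, and the choroid plexus and ependyma sum were higher without overlap. The choroid plexus and ependyma sum rests mainly on Ttr, and the median log2 difference of that list was 0.20. Lower without overlap were the interneuron markers, at 1070 to 1123 in inflexible and 1198 to 1289 in light drinkers. The microglia markers were lower too, at 294 to 335 and 352 to 388. So were the endothelial and mural markers, at 197 to 220 and 221 to 259. The part of all these markers in the Kcnab1 difference was not tested.

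The promoters of 4 members are printed because each was called: Kcnab1 and Kcna5 between drinking classes, and all 4 higher in striatum with no overlap of the regions' arrays, as given below. They are RefSeq sequences of the build GRCm38.p6, from 250 bases before to 50 after the annotated start, read 5′ to 3′ on the gene's strand, and capitals mark a GC box (GGGCGG or its complement). Kcnab1 has 3 annotated starts, and the window shown, chr3:64948962-64949261 on the plus strand, belongs to the first. The Kcna5 window is chr6:126535506-126535805 on the minus strand, the Kcna4 window chr2:107290339-107290638 on the plus strand, and the Kcnip2 window chr19:45816014-45816313 on the minus strand.
Kcnab1: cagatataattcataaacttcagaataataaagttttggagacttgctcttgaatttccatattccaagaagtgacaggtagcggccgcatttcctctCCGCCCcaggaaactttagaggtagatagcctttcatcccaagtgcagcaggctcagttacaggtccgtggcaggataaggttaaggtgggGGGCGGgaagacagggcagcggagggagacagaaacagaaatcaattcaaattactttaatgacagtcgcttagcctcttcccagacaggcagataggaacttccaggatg
Kcna5: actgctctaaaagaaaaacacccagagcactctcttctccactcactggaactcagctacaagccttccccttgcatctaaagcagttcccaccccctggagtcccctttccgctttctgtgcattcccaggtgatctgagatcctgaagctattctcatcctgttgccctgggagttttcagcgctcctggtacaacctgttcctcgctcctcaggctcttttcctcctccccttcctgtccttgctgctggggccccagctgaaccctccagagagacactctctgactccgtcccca
Kcna4: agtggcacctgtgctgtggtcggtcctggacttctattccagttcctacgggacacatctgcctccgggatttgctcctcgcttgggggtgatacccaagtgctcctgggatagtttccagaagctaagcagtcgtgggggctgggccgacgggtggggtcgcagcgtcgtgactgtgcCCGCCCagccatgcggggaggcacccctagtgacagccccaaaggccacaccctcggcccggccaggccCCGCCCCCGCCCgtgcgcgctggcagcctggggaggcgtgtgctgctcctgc
Kcnip2: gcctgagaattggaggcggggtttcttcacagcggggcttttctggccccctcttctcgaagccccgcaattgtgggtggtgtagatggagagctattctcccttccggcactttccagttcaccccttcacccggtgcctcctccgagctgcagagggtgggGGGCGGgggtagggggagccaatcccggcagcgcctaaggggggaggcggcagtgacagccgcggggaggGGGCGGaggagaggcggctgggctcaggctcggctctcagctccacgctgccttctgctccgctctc
The GC box occurred 2 times in Kcnab1, 3 times in Kcna4 and 2 times in Kcnip2, while these letters were not in the Kcna5 window. A GC box was present in 35.7% of all 32851 promoters of the table and in 42 of 87 promoters of the 63 members that matched it. The TATA box (TATAAA) was in 13.6% of all promoters and in 5 of the 87. The E-box (CACGTG) was in 7.15% and in 6 of the 87. The cAMP response element (TGACGTCA) was in 1.79% and the Egr site (GCGTGGGCG) in 0.612% of all promoters, and 0 of the 87 held either. Both strands were searched, the Egr site and the GC box share letters and can overlap, and none of the last 4 motifs was in the 4 printed windows. Base composition differs between them, from 46.7% GC in Kcnab1 to 67.7% in Kcna4, with a median of 52.7% over all promoters.

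The next smallest p-values in prefrontal cortex belonged to Kcna1, Kcnh5 and Kcnq1ot1, none of which passed. Kcna1, one of the pores that Kcnab1 binds, was at 6.45, 6.48 and 6.52 in inflexible and at 6.15, 6.00 and 6.06 in light prefrontal cortex. The classes did not overlap, and the log2 difference was 0.41 ± 0.08 with an adjusted p of 0.0587. With the control split as a block that adjusted p was 0.00872. Of its other probe sets above log2 4, the first gave 0.32 and the second -0.15, so the probe sets of Kcna1 disagreed in sign between classes.

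Kcnq1ot1 had 4.75, 4.63 and 4.70 in inflexible and 5.01, 4.91 and 5.04 in light prefrontal cortex, a log2 difference of -0.29 ± 0.06 with an adjusted p of 0.102. All 3 inflexible arrays were below the light ones. With the split as a block the adjusted p was 0.00195. The 2 other Kcnq1ot1 probe sets above log2 4 gave 0.00 and -0.19, and neither passed. Kcnh5, an ether-a-go-go type pore, lay near the floor of the arrays at 2.98 ± 0.02 in inflexible and 3.15 ± 0.06 in light prefrontal cortex, and its difference of -0.17 ± 0.04 had an adjusted p of 0.102.

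Counting arrays without a test, 10 members had all inflexible prefrontal arrays above all light ones and 9 had them below, against 14.1% of all genes, 7.46% above and 6.62% below. Those above were Kcnd2, Kcna1, Kcnab1, Kcnn2, Kcns2, Kcna4, Kcnj13, Kcna5, Kcnmb2 and Kcnj2. Those below were Kcnq1ot1, Kcnv1, Kcnc4, Kcnh3, Kcng1, Kcnj6, Kcnk3, Kcnk6 and Kcnh5. Kcnd2 belonged to the first list with 6.76, 7.11 and 6.80 in inflexible and 6.47, 6.61 and 6.45 in light prefrontal cortex, and its difference of 0.38 ± 0.15 did not pass (adjusted p = 0.551), while on low-control arrays alone it did, at 0.32 (adjusted p = 0.0342). Kcnv1, an electrically silent subunit that modifies Shab-type channels, belonged to the second with 4.58, 4.75 and 4.92 in inflexible and 5.04, 5.28 and 5.14 in light prefrontal cortex, a difference of -0.40 ± 0.09 (adjusted p = 0.118). Kcnj13, an inward rectifier known from choroid plexus and pigment epithelium, had 3.74, 3.56 and 3.53 in inflexible and 3.37, 3.37 and 3.29 in light prefrontal cortex, a difference of 0.27 ± 0.09 (adjusted p = 0.351). Beside it, the summed choroid plexus and ependyma markers were 1325 to 2186 in inflexible and 94 to 96 in light prefrontal cortex. That sum rests mainly on the bright gene Ttr. Of the 10 genes, 2 exceeded log2 4 in any group and 1 passed the test there. Their median log2 difference was 0.20 and the largest 6.25. Their part in the Kcnj13 values was not tested.

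The number of members called in prefrontal cortex moved with the treatment of the split. With it as a block, 3 members were higher (Kcna1, Kcnab1 and Kcns2) and 4 lower (Kcnh5, Kcnj9, Kcnk3 and Kcnq1ot1), against 3.19% of all genes, 1.66% higher and 1.53% lower. On the 6 prefrontal arrays alone with replicate as a block 5 members passed, Kcna1 and Kcnab1 higher and Kcnc4, Kcnj9 and Kcnq1ot1 lower, against 2.00% of all probe sets. In these arrays replicate number and control split cannot be told apart as the source of the pairing. Kcna1, Kcnab1, Kcnj9 and Kcnq1ot1 were called in both of these fits, and the fit of all 12 arrays without a block called Kcnab1 alone. Kcnj9 shows what the block changes: it was at 5.65, 4.63 and 5.54 in inflexible and 6.17, 5.31 and 6.01 in light prefrontal cortex, with the second array of each class, the high-control array, far below the other two. Its difference of -0.55 ± 0.33 had an adjusted p of 0.864 without and 0.0255 with the split as a block.

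**Figure D2:**
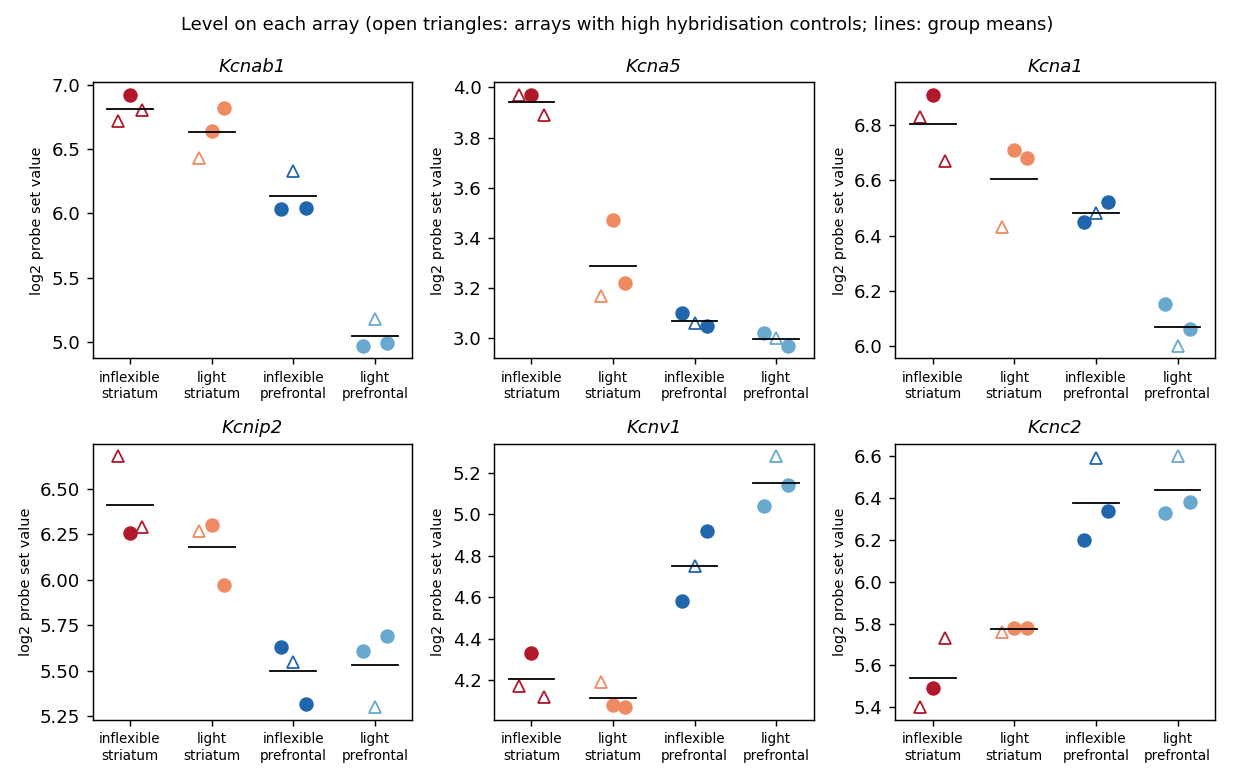
Level on each of the 12 arrays (log2 probe set value) of 6 potassium channel genes, with the 4 groups along each horizontal axis; open triangles are arrays with high hybridisation controls and lines are group means. Kcnab1 falls to 4.97 to 5.18 in light prefrontal cortex alone, and Kcna5 is raised to 3.89 to 3.97 in inflexible striatum alone.

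In striatum a single and different member passed between drinking classes. Kcna5, a Shaker-type delayed rectifier best known from heart and vascular smooth muscle, was higher in inflexible than in light drinkers. Only 4 of the 18193 genes were called in this comparison, 0.0220%, and all 4 were higher. Over the 83 members the log2 differences ran from -0.37 to 0.65. Within 0.2 of no difference lay 69 of them, against 17175 of all 18193 genes. An unadjusted p under 0.05 was held by 6 members, against 672 of all 18193 genes.

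Kcna5 was at 3.97, 3.97 and 3.89 in inflexible striatum and at 3.17, 3.47 and 3.22 in light striatum. The 3 inflexible arrays lay close together and above all others of the series. The log2 difference was 0.65 ± 0.07, a fold of 1.57 (adjusted p = 0.024). All 4 group means of this gene were below log2 4 and it has a single probe set, so no second measurement bears on it. The call rested on the full set of arrays: it was lost when any single array other than light striatum 2 or light prefrontal 2 was left out, with differences of 0.59 to 0.75 and an adjusted p of up to 0.173. It was also lost on low-control arrays alone, where the difference was 0.62 (adjusted p = 0.194), and with replicate as a block (adjusted p = 0.105). With the split as a block it was kept at 0.67 (adjusted p = 0.0186), the only member called against 0.110% of all genes, 0.0879% higher and 0.0220% lower.

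Markers that could travel with Kcna5 were read beside it. The summed microglia markers were 304 to 335 in inflexible and 295 to 339 in light striatum, and the endothelial and mural markers 201 to 220 in inflexible and 216 to 227 in light striatum. The medium spiny neuron markers summed to 2239 to 2383 in inflexible and 1675 to 1799 in light striatum, without overlap; 10 of 15 had an unadjusted p under 0.05, 0 passed after adjustment and 1 (Pdyn) passed with the split as a block. Also higher without overlap were the interneuron markers, at 1068 to 1202 in inflexible and 895 to 986 in light striatum. The same held for the astrocyte markers, at 1805 to 1930 and 1682 to 1795. It held too for the septum and thalamus markers, at 380 to 383 and 337 to 351. Sums of the other marker lists overlapped between the classes. The part of all these markers in the Kcna5 difference was not tested.

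The next smallest p-values in striatum were those of Kcng2, Kcnj4 and Kcnj3, each with an adjusted p of 1.00. Kcnj4 was at 4.52, 4.03 and 4.16 in inflexible and 3.98, 3.97 and 3.73 in light striatum, a difference of 0.34 ± 0.13. Kcnj3, a subunit of the channel that G protein-coupled receptors open, was at 4.15, 4.53 and 4.31 in inflexible and 4.49, 4.96 and 4.64 in light striatum, a difference of -0.37 ± 0.14. The arrays of Kcnj4 did not overlap between classes and those of Kcnj3 did. Kcng2, a silent subunit, differed by 0.14 ± 0.05. In all, 4 members had the inflexible striatal arrays above the light ones (Kcnj4, Kcna5, Kcng2 and Kcne4) and 3 below (Kcnc2, Kcnmb4os2 and Kcnk5), against 7.53% of all genes, 4.56% above and 2.97% below. Kcnab1 was at 6.72, 6.92 and 6.80 in inflexible and 6.43, 6.64 and 6.82 in light striatum, a difference of 0.18 ± 0.11 (adjusted p = 1.00).

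**Figure D3:**
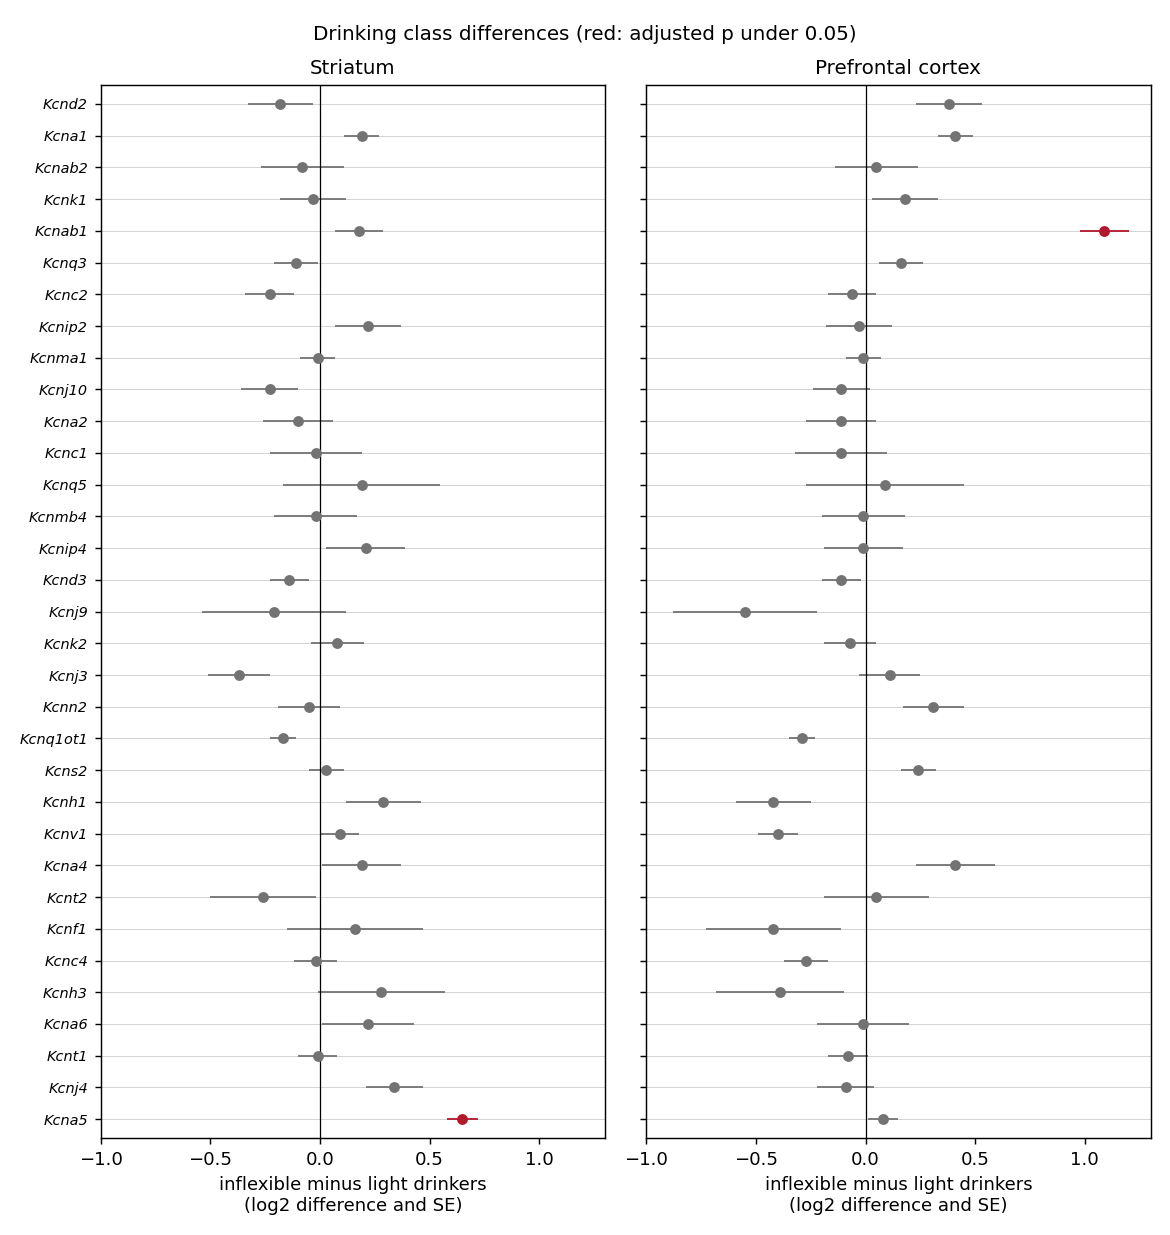
Differences between inflexible and light drinkers (horizontal axes, log2, with SE) in striatum (left) and prefrontal cortex (right) for the 32 genes above log2 4 and Kcna5; red marks an adjusted p under 0.05. Kcna5 at 0.65 in striatum and Kcnab1 at 1.09 in prefrontal cortex are the red points.

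Whether a class difference itself differed between regions was tested by the striatal minus the prefrontal difference. Kcna5 passed, with a log2 value of 0.58 ± 0.09 (adjusted p = 0.0458), against 0.440% of all genes called, 0.165% higher and 0.275% lower. Its prefrontal levels were 3.10, 3.06 and 3.05 in inflexible and 3.02, 3.00 and 2.97 in light drinkers, close to the floor of the arrays, and its prefrontal difference was 0.08 ± 0.07. For Kcnab1 the value was -0.91 ± 0.16 with an adjusted p of 0.062, which did not pass. With the control split as a block Kcnab1 was at -0.92 with an adjusted p of 0.0458, and Kcna5 at 0.60 with 0.0203, against 1.33% of all genes called, 0.583% higher and 0.748% lower. Leaving out any single array other than light striatum 2 ended the call on Kcna5, with adjusted p of up to 0.141. Kcnv1 followed at 0.49 ± 0.13 (adjusted p = 0.295) and Kcnh1 at 0.71 ± 0.25 (adjusted p = 0.622).

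The regions differed in more members than the drinking classes did. Averaged over both classes, 8 members were higher in striatum than in prefrontal cortex and 9 were lower, 17 of 83, against 5.38% of all genes (2.41% higher and 2.96% lower). The median log2 difference (striatum minus prefrontal cortex) was -0.01 over the members and 0.00 over all genes, with a range from -0.84 to 1.13. By family, 4 voltage-gated pore genes were higher and 5 lower, 1 inward rectifier was higher and 1 lower, and the same held for the 2-pore genes. Both auxiliary genes that passed were higher. The single calcium-activated gene and the single noncoding symbol that passed were lower. With the split as a block all 17 remained and 9 members were higher and 16 lower, against 11.2% of all genes, 5.87% higher and 5.29% lower. Counting arrays without a test, 4 members had all 6 striatal arrays above all 6 prefrontal ones (Kcnab1, Kcnip2, Kcna4 and Kcna5) and 5 had them below (Kcnc2, Kcnma1, Kcnmb4, Kcnip4 and Kcnv1), against 3.74% of all genes, 1.58% above and 2.16% below.

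The A-type current genes were divided. Kcnd2 ran from 6.95 to 7.56 with a median of 7.25 on the 6 striatal arrays and from 6.45 to 7.11 with a median of 6.68 on the 6 prefrontal ones. The regions overlapped by a narrow margin, and the difference was 0.56 ± 0.11 (adjusted p = 0.0158). Kcnip2, the subunit that brings Shal-type pores to the surface and shapes their gating, ran from 5.97 to 6.68 with a median of 6.28 in striatum and from 5.30 to 5.69 with a median of 5.58 in prefrontal cortex. Its regions did not overlap, at 0.78 ± 0.10 (adjusted p = 0.00238). Kcna4, a Shaker-type pore that also inactivates fast, ran from 4.51 to 5.27 with a median of 4.75 in striatum and from 3.71 to 4.37 with a median of 4.07 in prefrontal cortex, also without overlap, at 0.77 ± 0.13 (adjusted p = 0.00859). The related pore gene Kcnd3 went the other way, with 4.90 to 5.27 in striatum and 5.22 to 5.58 in prefrontal cortex, a difference of -0.33 ± 0.07 (adjusted p = 0.0216) whose ranges overlapped. Its call was lost without inflexible prefrontal 1, light prefrontal 1 or 3, inflexible striatum 3, or light striatum 1 or 2, with adjusted p of up to 0.0633. Kcnip4 was at 5.00 to 5.43 in striatum and 5.45 to 6.10 in prefrontal cortex, without overlap. Its brightest probe set did not pass at -0.51 ± 0.13 (adjusted p = 0.069), but did with the split as a block at -0.55 (adjusted p = 0.0118). Another Kcnip4 probe set above log2 4 passed without the block, at -0.46 (adjusted p = 0.0382 by limma).

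Among the Shaker-type genes and their beta subunit, Kcnab1 had the widest region difference of all members when averaged over both drinking classes. The gap was narrower in inflexible drinkers, with means of 6.81 in striatum and 6.14 in prefrontal cortex, than in light drinkers, with 6.63 and 5.04. In inflexible drinkers Kcnip2 had a wider gap, at 6.41 and 5.50. Kcnab1 ran from 6.43 to 6.92 with a median of 6.76 in striatum and from 4.97 to 6.33 with a median of 5.61 in prefrontal cortex, at 1.13 ± 0.08 or 2.19-fold (adjusted p = 5.0e-05). The regions did not overlap even though the prefrontal arrays of inflexible drinkers lay close beneath the striatal ones. Its second probe set gave 0.58 (adjusted p = 0.0113). Kcna1 ran from 6.43 to 6.91 in striatum and from 6.00 to 6.52 in prefrontal cortex, at 0.43 ± 0.06 (adjusted p = 0.00225), with a small overlap. Kcna5 ran from 3.17 to 3.97 in striatum and from 2.97 to 3.10 in prefrontal cortex, at 0.58 ± 0.05 (adjusted p = 1.1e-04). Its gap was wider in inflexible drinkers, with means of 3.94 and 3.07, than in light drinkers, with 3.29 and 3.00. Kcna2, another axonal pore, was not called at -0.42 ± 0.11 (adjusted p = 0.0922) and was with the split as a block, at -0.36 (adjusted p = 0.00752).

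**Figure D4:**
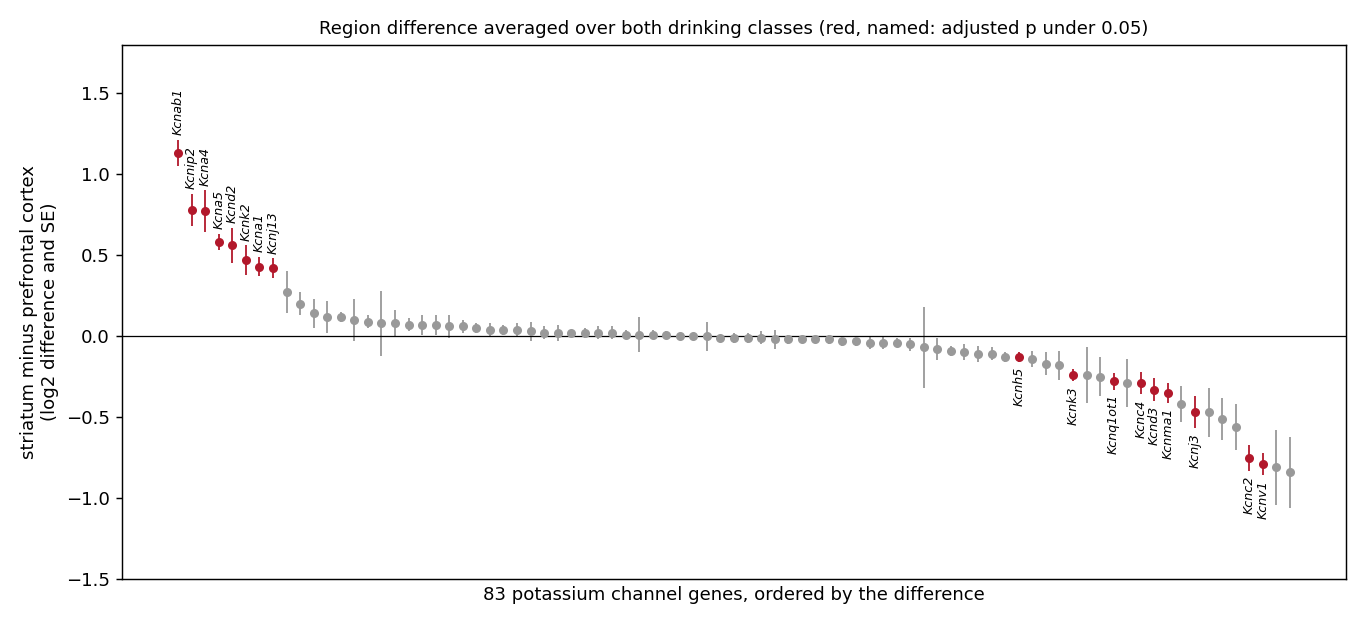
Difference between striatum and prefrontal cortex (vertical axis, log2, with SE), averaged over both drinking classes, for all 83 potassium channel genes in order; the 17 genes past an adjusted p of 0.05 are red and named. Kcnab1 stands at 1.13 at the upper end and Kcnv1 at -0.79 near the lower end, where 2 grey genes with wide errors, Kcnj9 at -0.81 and Kcnf1 at -0.84, did not pass.

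Kcnc2, Kcnc4 and Kcnv1 were lower in striatum. Kcnc2, a Shaw-type pore of fast-spiking neurons, ran from 5.40 to 5.78 with a median of 5.74 in striatum and from 6.20 to 6.60 with a median of 6.36 in prefrontal cortex. Its regions did not overlap, at -0.75 ± 0.08 (adjusted p = 5.5e-04). Kcnc4, of the same family, differed by -0.29 ± 0.07 at the edge of the threshold (adjusted p = 0.0495), and its probe set is of a kind that can bind transcripts of more than 1 gene. That call was lost when any array other than inflexible striatum 3 or light striatum 2 was left out. Kcnc1, the third Shaw-type gene above log2 4, did not pass at -0.29 ± 0.15 (adjusted p = 0.513) and was called lower on low-control arrays alone. Kcnv1 ran from 4.07 to 4.33 with a median of 4.14 in striatum and from 4.58 to 5.28 with a median of 4.98 in prefrontal cortex, without overlap, at -0.79 ± 0.07 (adjusted p = 1.2e-04). Kcnf1, a silent subunit as well, had wide spread at -0.84 ± 0.22 and did not pass (adjusted p = 0.0717). With the split as a block it was -0.74 with an adjusted p of 0.0058.

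Kcnma1, the pore of the large-conductance channel, ran from 5.53 to 5.87 with a median of 5.73 in striatum and from 5.95 to 6.20 with a median of 6.06 in prefrontal cortex. The regions did not overlap, and the difference was -0.35 ± 0.06 (adjusted p = 0.00881). Between drinking classes it differed by -0.01 ± 0.08 in striatum and by -0.01 ± 0.08 in prefrontal cortex. The 3 other Kcnma1 probe sets above log2 4 gave -0.07, -0.18 and -0.26 in striatum and -0.11, -0.30 and -0.41 in prefrontal cortex. Between regions the same 3 gave -0.29, -0.37 and -0.31, and only the middle one passed (adjusted p = 0.022 by limma). Kcnma1 passed between classes with none of these probe sets. Its neuronal beta subunit Kcnmb4 ran from 5.10 to 5.38 in striatum and from 5.38 to 6.10 in prefrontal cortex, ranges that met without crossing, and did not pass at -0.56 ± 0.14 (adjusted p = 0.0564), but did with the split as a block at -0.50 (adjusted p = 0.00798). Kcnn2 passed no test in the fit of all 12 arrays, with a region difference of 0.12 ± 0.10. In prefrontal cortex it was at 4.83, 4.84 and 4.85 in inflexible and 4.59, 4.34 and 4.65 in light drinkers, without overlap, a difference of 0.31 ± 0.14 (adjusted p = 0.638). On low-control arrays alone Kcnn2 was called in both comparisons, at 0.28 between regions (adjusted p = 0.00435) and 0.22 between prefrontal classes (adjusted p = 0.0336).

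Of the G protein-gated inward rectifiers, Kcnj3 was lower in striatum, from 4.15 to 4.96 there and from 4.82 to 5.26 in prefrontal cortex, at -0.47 ± 0.10 (adjusted p = 0.0339). The ranges overlapped, and the call was lost without inflexible prefrontal 1 or 2, light prefrontal 1 or 3, inflexible striatum 1 or 3, or light striatum 1 or 3, with adjusted p of up to 0.0918. Kcnj9 had the larger difference of -0.81 ± 0.23 and its brightest probe set did not pass (adjusted p = 0.109). With the split as a block it was -0.69 with an adjusted p of 4.5e-04. The other Kcnj9 probe set above log2 4 gave -0.46 and passed without the block (adjusted p = 0.00813 by limma). Kcnj13 was higher in striatum, from 3.74 to 4.07 there and from 3.29 to 3.74 in prefrontal cortex, at 0.42 ± 0.06 (adjusted p = 0.00386). Beside Kcnj13, 6 of the 10 choroid plexus and ependyma markers were also higher in striatum, and their part was not tested. Among the 2-pore genes, Kcnk2 was higher in striatum at 0.47 ± 0.09 (adjusted p = 0.0163), and Kcnk3, an acid-sensitive leak pore that was dim, was lower at -0.24 ± 0.04 (adjusted p = 0.0125). The remaining falls were those of Kcnq1ot1 at -0.28 ± 0.05 (adjusted p = 0.00752) and of the dim Kcnh5 at -0.13 ± 0.03 (adjusted p = 0.0267). The Kcnh5 call was kept only without inflexible prefrontal 2, light prefrontal 2, inflexible striatum 3 or light striatum 3, among the single arrays left out, and was lost with replicate as a block (adjusted p = 0.0555).

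The direction of the region difference was the same within each part of the control split for all 17 genes. These genes were called on the same arrays, so that agreement was partly fixed by their selection and is not a separate test. On low-control arrays alone the region difference ran from 0.43 to 1.32 for the 8 genes that were higher and from -0.72 to -0.14 for the 9 that were lower. On high-control arrays alone it ran from 0.35 to 0.95 and from -0.93 to -0.11. Of the 17 called genes, 7 had another probe set above log2 4, and in all 7 every such probe set had the same sign. Kcnd2 was the most complete, with 0.66 (adjusted p = 0.0303) and 0.48 (adjusted p = 0.0265) from its other probe sets. Kcnv1 had -0.63 (adjusted p = 1.5e-04) and Kcnj3 -0.44 (adjusted p = 0.0128) from theirs. Of such probe sets, 1 of 2 passed for Kcna1, 1 of 3 for Kcnma1 and 0 of 2 for Kcnq1ot1. Those that did not pass gave 0.43 for Kcna1 (adjusted p = 0.344) and -0.29 and -0.31 for Kcnma1 (0.293 and 0.755). For Kcnq1ot1 they gave -0.19 and -0.22 (0.783 and 0.492).

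**Figure D5:**
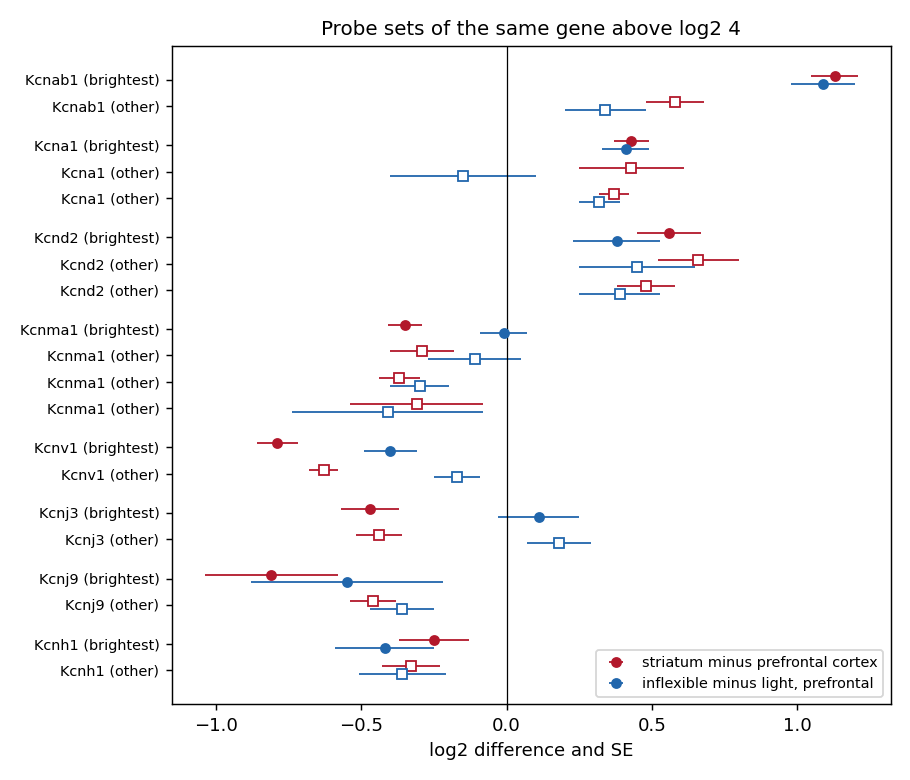
Region difference (red) and prefrontal drinking class difference (blue), on the log2 scale with SE, for the probe set with the highest mean (filled circles) and the other probe sets above log2 4 (open squares) of 8 genes. For the region difference the probe sets of each gene lie on 1 side of 0, and for Kcna1 the prefrontal class difference takes both signs, 0.41 and 0.32 against -0.15.

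Several members lie next to each other in the genome. Among protein-coding genes of the RefSeq annotation, Kcna5, Kcna1 and Kcna6 follow one another on chromosome 6, Kcna3 and Kcna2 on chromosome 3, and Kcnj9 and Kcnj10 on chromosome 1. Kcna5 and Kcna1 were both higher in striatum, while Kcna6 differed by -0.47 ± 0.15 and did not pass (adjusted p = 0.164); with the split as a block it was lower at -0.39 (adjusted p = 3.8e-04). Kcna5 differed between classes in striatum by 0.65 and Kcna1 by 0.19 ± 0.08 (adjusted p = 1.00). In prefrontal cortex Kcna1 differed by 0.41 and Kcna5 by 0.08 ± 0.07. Kcnj9 and Kcnj10 differed between regions by -0.81 and by -0.18, and both were called lower in striatum with the split as a block, as given above.

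Other genes of potassium handling were read from 6 lists of 24 measured genes: Shaker- and Shal-channel partners, gamma subunits of the large-conductance channel, sulfonylurea receptors, HCN channels, the sodium-potassium pump and the cation-chloride cotransporters. Between drinking classes 5 and 1 of the 24 had an unadjusted p under 0.05 by limma in prefrontal cortex and striatum. Over all 18193 genes 1668 and 672 did. None of the 24 passed after adjustment in either region, against 1.04% and 0.0220% of all genes. Their median log2 differences were -0.01 and 0.01. Between regions 0 were higher and 1 lower, against 5.38% of all genes, and with the split as a block 3 were higher and 4 lower, against 11.2%. The gene called without a block was Dpp10, a partner of Shal-type pores, at 5.08 and 4.50 in inflexible and light striatum and at 5.97 and 6.45 in inflexible and light prefrontal cortex, a region difference of -1.42 ± 0.09 (adjusted p = 2.3e-05). The cotransporter Slc12a2, which brings chloride into cells, was at 5.93 in inflexible and 5.67 in light prefrontal cortex, and the pump subunit Atp1b1 at 10.25 and 10.09, with adjusted p of 0.508 and 0.869. The sulfonylurea receptor Abcc9 differed there by -0.16 ± 0.07 (adjusted p = 0.657) and the HCN channel Hcn3 by -0.14 ± 0.04 (adjusted p = 0.282). Slc12a5, the chloride extruder of neurons, was at 8.49 in inflexible and 8.77 in light prefrontal cortex, a difference of -0.28 ± 0.11 that did not pass (adjusted p = 0.567). With the split as a block 1 of the 24 was higher and 1 lower in prefrontal cortex, against 3.19% of all genes (1.66% higher and 1.53% lower). The higher gene was Lgi1, a secreted protein of the axonal channel complex, at 0.41 (adjusted p = 0.0158). The lower one was Slc12a5 at an adjusted p of 0.0394.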

How the data were processed

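The authors deposited log2 probe set values of 12 one-colour arrays; per the submitters' processing notes the tools were RMA and affy, with no version given, and the log base was read from the values (2.76 to 11.56 over the probe sets tested). Neither scanner files nor the authors' own test were used here, and the number of arrays limits the precision.

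Control probe sets (64 of 45101) were left out. The array annotation gave 34945 of the remaining 45037 probe sets a single symbol, 932 several and 9160 none. Group means of all 12 arrays were fitted with limma 3.58.1 in R 4.3.3 (lmFit, eBayes, 8 residual degrees of freedom), with two-sided p-values adjusted by Benjamini-Hochberg over 45037 probe sets and called under 0.05. The script was tested on simulated data. Tables and plots were made with Python 3.11.15, pandas 2.3.3, numpy 2.4.6 and matplotlib 3.10.9. Marker sums add 2 to the power of each value.

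Members and lists were chosen with earlier results of these data known, and the control split follows the largest jump between sorted array means of the hybridisation controls. Named genes were all called members, the 4 smallest p-values of a comparison with fewer calls, the 3 highest levels of each family, a short list of channels of interest, and the 2 smallest prefrontal p-values of each further list.

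Replicate numbers were checked by correlating same-numbered arrays' deviations from their group means. In prefrontal cortex these were 0.62 to 0.85, which meets the rule set for pairing. Replicate 2 is the high-control array in both classes, and differently numbered low-control arrays correlated as well (0.62 and 0.80), so number and split cannot be told apart. In striatum they were -0.64 to 0.26, which pairs nothing. No 2 arrays were identical. Settings varied were the replicate and split blocks, each split part alone, leaving out each array, quantile normalisation, a filter on dim probe sets, array weights, a minimum fold of 1.5, the region alone and averaging all probe sets of each gene.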

Additional observations from a re-analysis of the deposited data

Results flagged for a closer look

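Kcna5 stood out because its drinking class difference was not the same in both regions by a test of the difference itself. The striatal minus the prefrontal difference was 0.58 ± 0.09 on the log2 scale (limma, adjusted p = 0.0458). In striatum all 3 inflexible arrays were above all 3 light ones, at 3.97, 3.97 and 3.89 against 3.17, 3.47 and 3.22. In prefrontal cortex the order of the classes was the same by a much smaller margin, 3.10, 3.06 and 3.05 in inflexible against 3.02, 3.00 and 2.97 in light drinkers. These prefrontal levels lie close to the floor of the arrays, where differences are understated. Without single arrays the adjusted p lay between 0.00198 and 0.141, and only without light striatum 2 did it stay under the threshold. The call was also lost with replicate as a block. The groups of 3 arrays are too small for a test of single outlying arrays.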

How the results depend on the processing

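Directions held in every setting tried: none of the called values changed sign. Every setting reused the arrays on which the calls were made, so this is not a separate test. In prefrontal cortex the count of called members, 1 in the report, was 7 with the control split as a block, 9 on low-control arrays alone, 0 on high-control arrays alone, 3 after quantile normalisation, 13 with array weights, 0 at a minimum fold of 1.5, 2 on the prefrontal arrays alone, 2 after averaging all probe sets of each gene, and 5 with a replicate block on the prefrontal arrays alone, a setting added after seeing the data. The share of all features called moved too: 0.826% in the reported fit, 2.48%, 2.76%, 0%, 0.926%, 6.56%, 0.0289%, 0.440%, 1.15% and 2.00% in these settings in the same order. Without single arrays it was 1 to 2 (2 without inflexible prefrontal 2 or light striatum 1). In striatum the single call became 0 with a replicate block, on low-control or high-control arrays alone, with the dim filter, with array weights, at the minimum fold, on the striatal arrays alone and in both added replicate block settings, and was 0 to 1 without single arrays. For the difference between regions in the class effect, the single call became 0 with a replicate block, on low-control or high-control arrays alone, at the minimum fold and with a replicate block plus dim filter, 2 with the split block and 3 with array weights, and was 0 to 1 without single arrays. With the dim filter the single call was Kcnab1, since Kcna5 was not tested. For this difference 0.313% of all probe sets were called in the reported fit. The share was 0.984% with the split block, 1.78% with array weights and 1.18% with the dim filter. In striatum it was 0.0111% in the reported fit, 0.00888% with a replicate block, 0.0249% with the dim filter and 0.0155% with array weights. Between regions 17 calls became 0 on high-control arrays alone, 29 with array weights (9.18% of all probe sets, against 3.82% in the reported fit) and 1 (Kcnab1) at the minimum fold, and were 13 to 20 without single arrays. The replicate block over all 12 arrays kept Kcnab1 in prefrontal cortex and 16 of the 17 region calls, all but Kcnh5. The high-control arrays leave 1 residual degree of freedom. Kcnj3, Kcnd3 and Kcnc4 were not called between regions on low-control arrays alone (adjusted p = 0.193, 0.0503 and 0.16). The cause of these shifts was not tested.

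The 51 genes at or below log2 4 lie near the floor of the arrays. A difference not called there is not shown to be absent.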
